A study of Mus musculus with 6 samples.

Results

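Hnf4a and Hnf4g encode the hepatocyte nuclear factor 4 receptors, and their open chromatin was described in the S1 segment of mouse kidney proximal tubules. A region belonged to a gene if its strongest summit lay in the gene body or within 50 kb of it. This gave 34 regions of 99359 in the whole series, 26 at Hnf4a and 8 at Hnf4g. Hnf4a (ENSMUSG00000017950.16) lies on the plus strand of chromosome 2 (GRCm38, 163506808 to 163572910), and Hnf4g (ENSMUSG00000017688.14) on the plus strand of chromosome 3 (GRCm38, 3508030 to 3658052).

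Chromatin was assayed by ATAC-seq, where a transposase loads sequencing adapters into accessible DNA. The 6 libraries came from male wild-type C57BL/6 mice operated at 7 weeks of age, 3 from mice given a sham operation (Sham) and 3 from mice that lost 1 kidney to a unilateral nephrectomy (UNx), all taken at 24 h. Each library was made from 3 hand-dissected S1 tubules. Whether the 3 libraries of a group stand for 3 mice is not in the labels, so p-values measure the spread between libraries, which may be technical.

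HNF4 proteins are nuclear receptors that bind a direct repeat of 2 receptor half-sites as dimers and activate genes of differentiated epithelia. HNF4A is a main regulator of proximal tubule, liver and intestinal genes, and HNF4G is its close relative in kidney and intestine. Hnf4a has 2 classical alternative promoters. P1 is the promoter used in adult liver and kidney, and P2, which lies upstream, is used in pancreatic islets and fetal liver and gives a protein with a different amino end. The authors' lists give peaks, not RNA, so they show where chromatin was open and not how much of either factor was made.

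Sequence upstream of the 2 classical Hnf4a promoters is shown first because 1 of them had a strong peak in every library and the other had no peak or a weak one. Both are the 250 bases before the RefSeq start, 5′ to 3′ on the plus strand of chromosome 2 in GRCm38.p6 (P1: chr2:163546905-163547154; P2: chr2:163506607-163506856). Capitals mark a loose match to the HNF1 consensus. The RefSeq starts (163547155 for P1 and 163506857 for P2) differ from the GENCODE starts used for distances below (163547187 and 163506808). The P2 sequence therefore includes the GENCODE start of P2.
Hnf4a P1: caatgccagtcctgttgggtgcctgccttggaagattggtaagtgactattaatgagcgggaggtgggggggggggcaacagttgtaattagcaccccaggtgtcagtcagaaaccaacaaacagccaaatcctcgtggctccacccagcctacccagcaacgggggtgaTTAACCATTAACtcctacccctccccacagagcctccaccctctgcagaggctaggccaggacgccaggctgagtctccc
Hnf4a P2: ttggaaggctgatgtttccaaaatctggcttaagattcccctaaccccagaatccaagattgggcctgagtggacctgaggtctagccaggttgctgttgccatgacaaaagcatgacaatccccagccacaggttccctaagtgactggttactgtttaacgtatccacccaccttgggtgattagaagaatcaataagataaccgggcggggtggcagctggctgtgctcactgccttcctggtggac

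Some of the strongest distal regions, and some of those that differed most between the operations, are shown as the 151 bases around the strongest summit, on the plus strand. They are named by the distance of that summit from the P1 start of Hnf4a (163547187) or the first start of Hnf4g (3508030). Of the distal regions below, 4 lie on chromosome 2: chr2:163480324-163480474 (66788 bp upstream of P1), chr2:163535168-163535318 (11944 bp upstream), chr2:163555543-163555693 (8431 bp downstream) and chr2:163560439-163560589 (13327 bp downstream). The last, chr3:3613755-3613905, is 105800 bp downstream of the first Hnf4g start.
Hnf4a 66788 bp upstream, intergenic: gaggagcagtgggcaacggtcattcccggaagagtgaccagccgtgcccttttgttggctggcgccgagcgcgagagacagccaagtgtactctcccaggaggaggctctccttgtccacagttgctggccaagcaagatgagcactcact
Hnf4a 11944 bp upstream, intronic: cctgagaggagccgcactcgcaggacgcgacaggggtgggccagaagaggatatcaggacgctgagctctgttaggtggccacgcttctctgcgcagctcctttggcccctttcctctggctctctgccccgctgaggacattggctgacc
Hnf4a 8431 bp downstream, intronic: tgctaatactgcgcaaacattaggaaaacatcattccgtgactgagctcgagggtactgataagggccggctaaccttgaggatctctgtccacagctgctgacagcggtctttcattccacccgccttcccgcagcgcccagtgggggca
Hnf4a 13327 bp downstream, intronic: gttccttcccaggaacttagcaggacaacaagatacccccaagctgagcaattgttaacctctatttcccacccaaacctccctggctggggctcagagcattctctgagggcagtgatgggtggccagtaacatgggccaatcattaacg
Hnf4g 105800 bp downstream, intronic: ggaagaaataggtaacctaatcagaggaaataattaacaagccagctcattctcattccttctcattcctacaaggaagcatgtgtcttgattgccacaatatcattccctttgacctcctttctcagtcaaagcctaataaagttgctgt

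Lists of different length cannot be compared by raw rank. From each list only the 77355 peaks of highest −log10 q were therefore kept. A peak's percentile rank is its place among them, near 100 for the strongest. A region that was not among those peaks has the value 0. The 6 deposited lists held from 77355 to 100999 peaks, and Sham 2 was the shortest. Read counts are not part of the lists, so depth is unknown. Of 6 S1 marker genes (Slc5a2, Slc5a12, Slc34a1, Lrp2, Cubn and Slc4a4), 6 had a promoter region in all 6 lists. Of 4 loop, distal tubule and collecting duct genes, 2 had one (Umod and Slc12a1), and a promoter region was present in 3 of 3 podocyte, 4 of 4 endothelial, 1 of 3 stromal and 1 of 3 leukocyte genes, in all 6 lists for Wt1 and Col1a1. The mean percentile over the 2 loop genes ran from 59.3 to 62.6 in Sham and from 42.2 to 53.6 in UNx libraries, and that over the 3 podocyte genes from 18.6 to 25.9 and from 21.5 to 35.3. The promoter of Slc12a1 was at 56.9 ± 4.01 in Sham and 30.2 ± 9.70 in UNx libraries, and that of Wt1 at 39.8 ± 0.755 and 57.2 ± 8.18 (SD, n = 3 each). The 1 tested endothelial promoter, that of Flt1, ran from 3.75 to 20.3 in Sham libraries and stood at 0 in the 3 UNx libraries. The part of these cells in any result below was not tested.

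P1 was open in every library. In such bulk tubules, a site open in fewer cells and one less open in each cell cannot be told apart. Its region (163546802 to 163547446) ranked at 85.3, 88.9 and 85.8 in Sham 1, 2 and 3 and at 89.3, 86.5 and 87.2 in UNx 1, 2 and 3. The values of the operations overlapped, with 86.7 ± 1.93 in Sham and 87.7 ± 1.44 in UNx (SD, n = 3 each). The difference, always given here as UNx minus Sham, was 0.99 percentile points with a standard error of 2.48 (limma adjusted p = 0.872). P1 ranked above 54.1% of the 13795 protein-coding genes that had a promoter region.

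The summit of P1 hardly moved between libraries. It lay 58, 56 and 60 bp upstream of the P1 start in the Sham lists and 54, 52 and 57 bp upstream in the UNx lists. In 4 lists this was the only summit of the interval, and in UNx 1 and UNx 2 a weak second summit lay 330 and 311 bp upstream of the start, with a −log10 q of 1.30 and 4.61. The capitals in the P1 sequence, at 163547075 to 163547086, are centred 52 bp upstream of the strongest summit and read GTTAAT and TTAA with 2 bases between them on the minus strand.

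P2 had no region among the ranked peaks of any list. Among all deposited peaks, 2 lists had a peak within 1 kb of its start (163506808), Sham 1 with a −log10 q of 2.62 and UNx 2 with 3.79. These stood at the 4.55 and 7.37 percentile of their whole lists. In UNx 2 the summit lay 7 bp from the P2 start, and in Sham 1 it lay 882 bp upstream. The same lists had P1 at a −log10 q of 84.1 and 106.

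Another start of Hnf4a (163550083), annotated for 1 protein-coding transcript and lying inside the gene downstream of P1, also had a region in all 6 lists (163549678 to 163550404). Its percentile was 75.6, 70.5 and 61.8 in Sham 1 to 3 and 76.3, 74.9 and 73.5 in UNx 1 to 3. The groups overlapped, and the difference of 5.59 percentile points had a standard error of 5.11 (limma adjusted p = 0.594). The strongest summit of each list lay 63 to 110 bp upstream of that start. Without Sham 3, its lowest library, the difference was 1.82.

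Hnf4g had 1 open promoter. The region at its first start (3507456 to 3508872) had percentiles of 91.8, 93.2 and 89.4 in Sham and of 91.8, 91.6 and 86.9 in UNx libraries, so the groups overlapped. The means were 91.5 ± 1.90 and 90.1 ± 2.77 (SD, n = 3 each), a difference of −1.40 with a standard error of 2.14 (limma adjusted p = 0.775). It ranked above 64.0% of the protein-coding genes with a promoter region. The second Hnf4g start (3634150), in the gene body, had no peak within 1 kb in any of the 6 lists, even among all deposited peaks. The nearest summits lay 18529 to 20305 bp upstream of it.

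**Figure D1:**
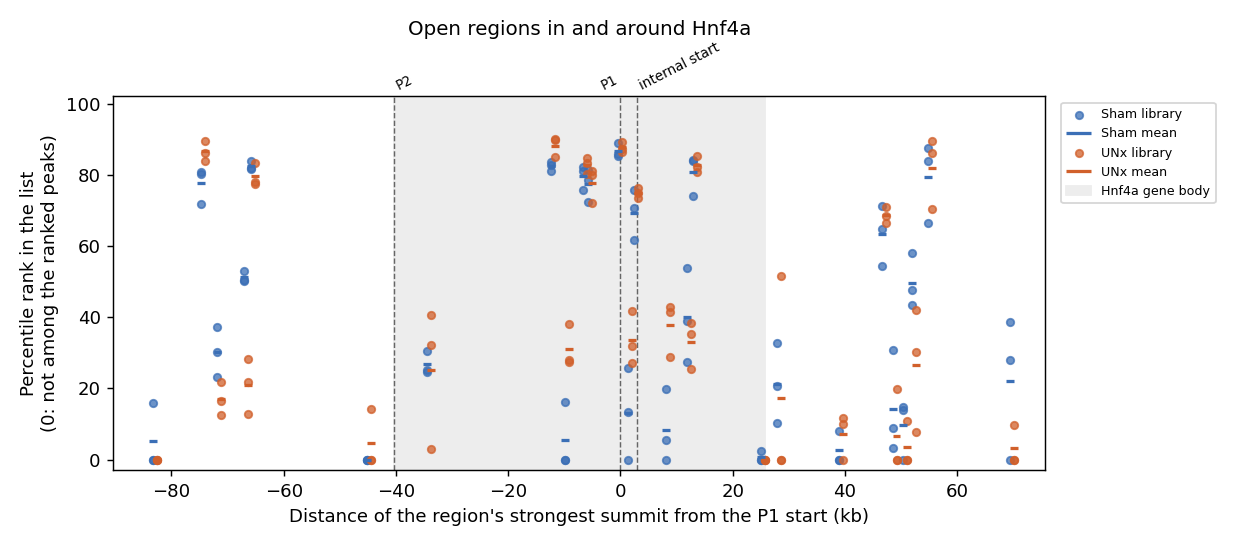
Percentile rank (vertical axis, 0 where the region was not among the ranked peaks) of the 26 Hnf4a regions against the distance of their strongest summit from the P1 start in kb. Points are libraries, short bars are means of 3 libraries, grey is the gene body and dashed lines are annotated starts; P1 stands near 87 in both operations and no region stands at P2.

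Strong and weak open regions of Hnf4a were interspersed around P1. In the gene body there were 12 regions, of which 8 were in all 6 lists, and in the flanks 14, of which 7 were. The region 11944 bp upstream of P1, in an intron of Hnf4a and of the antisense gene Hnf4aos, ranked at 82.8, 83.6 and 81.1 in Sham and at 89.6, 85.0 and 90.0 in UNx libraries. The 3 UNx values lay above the 3 Sham values, by a mean of 5.73 with a standard error of 2.78 (limma adjusted p = 0.279, so it did not pass the test).

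Hnf4aos starts between that region and P1. Its start had 2 regions in all 6 lists. The one 5494 bp upstream of P1 ranked from 72.2 to 81.5 in Sham and from 72.1 to 81.1 in UNx libraries, and the one 6356 bp upstream from 75.9 to 82.2 and from 80.1 to 84.8. The groups overlapped at both. Peaks carry no strand, so an open site here could serve either gene.

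Downstream of P1 the strongest distal region lay 13327 bp from the start, in an intron. Its Sham percentiles were 84.1, 74.0 and 83.9 and its UNx percentiles 82.2, 80.8 and 85.3. The groups overlapped (difference 2.09, standard error 3.67, limma adjusted p = 0.808). The other strong distal region was intergenic, 65415 bp upstream of P1, with 82.0, 83.8 and 81.6 in Sham and 77.5, 83.4 and 78.0 in UNx libraries (difference −2.87, standard error 3.51, limma adjusted p = 0.705).

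Hnf4g was sparser. Its window of 250023 bp held 8 regions (3.20 per 100 kb, against 15.7 for Hnf4a and 3.65 over the genome), and 3 of them were in all 6 lists. The strongest distal one, in an intron 105800 bp downstream of the first start, ranked at 79.9, 62.1 and 80.5 in Sham and at 74.7, 78.8 and 70.9 in UNx libraries. The region 73850 bp downstream, also intronic, stayed within 46.3 to 51.3 in Sham and 47.4 to 51.6 in UNx libraries. The operations overlapped at both, with differences of 0.65 (standard error 5.34) and 0.80 (standard error 7.77). The other 5 Hnf4g regions were intronic, weak and found in 2 to 5 lists. The highest was 107582 bp downstream, with 25.2, 43.6 and 14.99 in Sham and 0, 12.7 and 42.1 in UNx libraries (difference −9.65, standard error 12.5, limma adjusted p = 0.723). This difference was −0.52 without UNx 1 and −21.6 without UNx 3. The regions 104422 and 74992 bp downstream differed by −4.43 (standard error 7.51) and −3.13 (standard error 10.1), and each was at 0 in 3 of the 6 libraries.

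**Figure D2:**
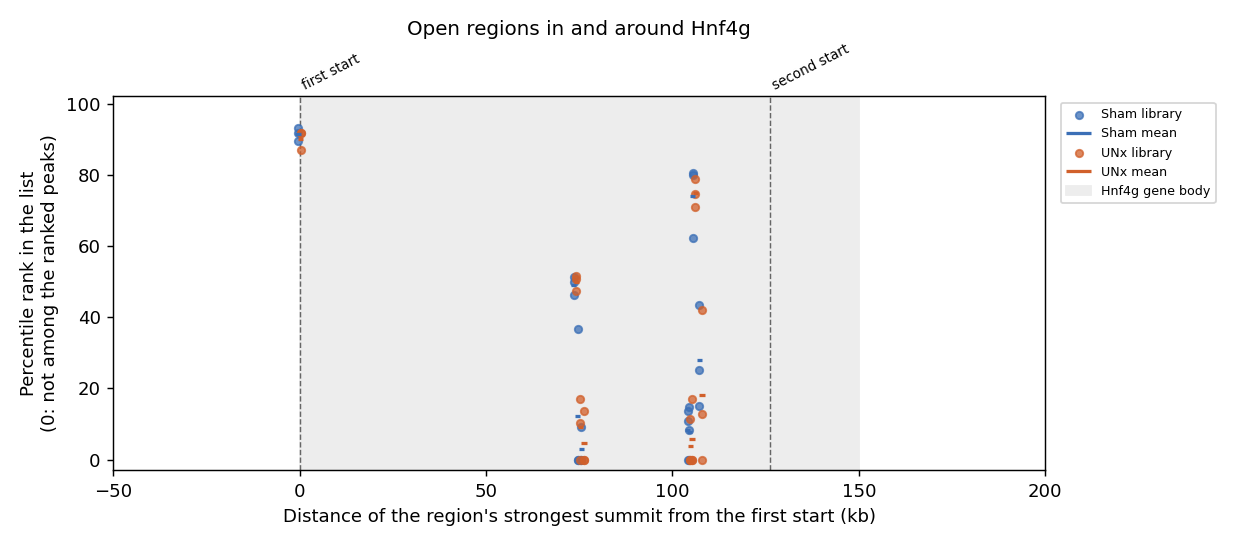
Percentile rank of the 8 Hnf4g regions against the distance of their strongest summit from the first start in kb, with points for libraries and short bars for means of 3 libraries. The promoter stands near 91, the intronic region at 105800 bp between 62.1 and 80.5, and nothing stands at the second start.

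The number of regions per list did not separate the operations. The Hnf4a window held 22, 20 and 21 ranked regions in the Sham lists and 19, 20 and 22 in the UNx lists, a difference of −0.67 (exact permutation test, two-sided, p = 0.8). For Hnf4g the counts were 5, 6 and 7 in Sham and 5, 5 and 6 in UNx lists, also a difference of −0.67 (exact permutation test, two-sided, p = 0.7). With 3 libraries against 3 the smallest p this test can give is 0.1. Of the 26 Hnf4a regions, 15 were in all 6 lists, 2 were only in Sham lists and 1 was only in UNx lists, and each of these last 3 regions was in 1 list.

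No HNF4 region passed the test between operations. Of the 34 regions, 30 were present in at least 3 lists and were tested with limma among 74781 regions. Of these 30, 0 passed an adjusted p under 0.05, where 0.788% of all tested regions did, and 5 had an unadjusted p under 0.05, all of them at Hnf4a, against 18.6% of all tested regions. A region counts as tested partly through the libraries where it is high, so the 30 are not all members. The median difference was −0.52 over the 30 regions and −0.01 over all tested regions.

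In 5 of the 30 regions the 3 UNx values lay wholly above the 3 Sham values, against 12.0% of all tested regions, and in 3 wholly below, against 11.7%. Both shares are near the background. All 8 were at Hnf4a, and their places differed. Of the 11 tested regions in the Hnf4a gene body, 4 lay wholly above, 0 wholly below and 9 had a difference above 0. Of the 12 tested in the Hnf4a flanks, 1 lay wholly above, 3 wholly below and 4 had a difference above 0. The Hnf4g gene body did not share this. Of its 6 tested regions, 0 lay wholly above, 0 wholly below and 2 had a difference above 0. Over all tested regions the median difference was −0.01. The division into body and flanks was made after these values were seen and was not tested. No share for bodies or flanks over all genes is given beside it. These counts rest on ranking by −log10 q. By fold enrichment, 0 HNF4 regions lay wholly above and 3 wholly below.

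The differences largest in size among regions of the gene body were at weak intronic sites. The region 8431 bp downstream of P1 was at 19.7, 5.47 and 0 in Sham and at 28.7, 41.5 and 43.0 in UNx libraries, a difference of 29.3 with a standard error of 10.9 (limma unadjusted p = 0.0146, adjusted p = 0.162). Each UNx list gave this interval 2 summits, one 8020, 8026 and 8039 bp and the other 8375, 8396 and 8431 bp downstream of P1. Sham 1 and Sham 2 had 1 summit, 8411 and 8348 bp downstream. Sham 3 had none among its ranked peaks, and its weak deposited peak also held 2 summits, 8362 and 8444 bp downstream, with −log10 q of 3.02 and 2.71. The region 9554 bp upstream of P1 was at 0, 16.3 and 0 in Sham and at 27.4, 27.9 and 38.2 in UNx libraries (difference 25.7, standard error 10.2, limma adjusted p = 0.188). It was in 1 of the 3 Sham lists even among all deposited peaks. Without that library, Sham 2, the difference was 43.1 on longer lists. The region 1773 bp downstream of P1, also intronic, was at 13.5, 0 and 25.6 in Sham and at 41.7, 32.0 and 27.2 in UNx libraries (difference 20.6, standard error 11.1, limma adjusted p = 0.330).

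The difference of largest size in the flanks went the other way. The intergenic region 66788 bp upstream of P1 had percentiles of 50.3, 50.5 and 52.9 in Sham and of 21.7, 28.1 and 12.9 in UNx libraries, a difference of −30.3 with a standard error of 9.74 (limma unadjusted p = 0.00599, adjusted p = 0.118). The Sham values were close together, and all 3 UNx values lay below them. The strongest summit also differed. In the 3 Sham lists it lay 66788 to 66803 bp upstream of P1. In UNx 1 and UNx 2 the summit with the higher −log10 q was the other one, 66548 and 66564 bp upstream, while in UNx 3 the first was again the higher. At the first summit the authors' fold enrichment was 5.37, 4.81 and 5.92 in the Sham lists and 2.77, 3.37 and 3.63 in the UNx lists. At the second summit it was 4.80 in Sham 1 and 2.83 in Sham 3, with no such summit in Sham 2, and 3.66, 3.87 and 3.43 in the UNx lists, so the values of the operations overlapped there.

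The other 2 regions wholly below were also intergenic. The one 71450 bp upstream of P1 was at 37.3, 23.3 and 30.1 in Sham and at 16.5, 21.8 and 12.6 in UNx libraries. The one 52268 bp downstream was at 43.3, 47.6 and 58.1 in Sham and at 30.3, 42.1 and 7.72 in UNx libraries. The remaining region wholly above was the shared promoter of Fitm2, a gene of lipid droplet formation, and the antisense RNA 2310001K24Rik, with 80.9, 71.9 and 80.2 in Sham and 89.6, 84.0 and 86.2 in UNx libraries (limma adjusted p = 0.189). The promoter of Ttpal, on the other side of Hnf4a, ranked from 66.5 to 87.6 in Sham and from 70.3 to 89.4 in UNx libraries.

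**Figure D3:**
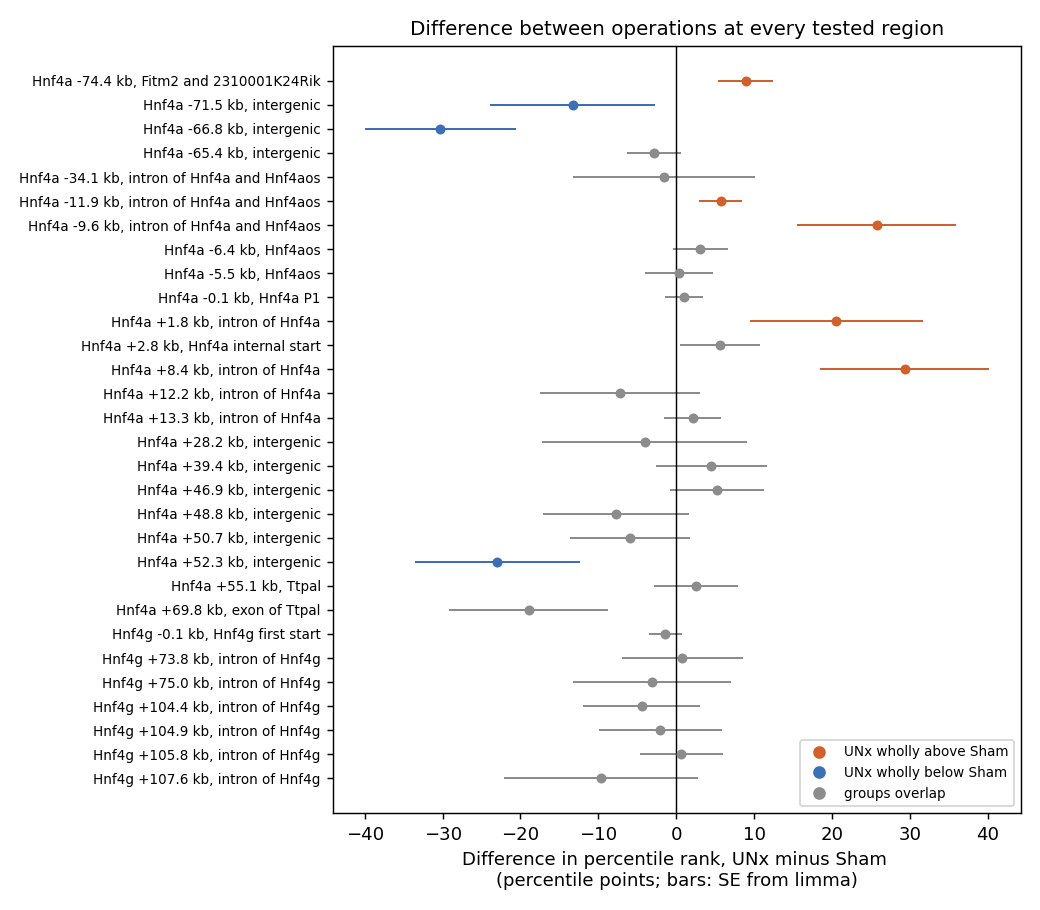
Difference in percentile rank (UNx minus Sham, horizontal axis, in percentile points) at each of the 30 tested regions, named by gene, distance from its main start and place, with bars for the limma standard error. The 4 Hnf4a gene body regions wholly above Sham lie between 5.73 and 29.3, and 1 flank region wholly above, the Fitm2 promoter, at 8.91. The 3 wholly below are intergenic flank regions, and P1 and the Hnf4g promoter lie near 0.

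The remaining members overlapped between operations. In the gene body, the region 34110 bp upstream of P1 ranked from 24.6 to 30.6 in Sham and from 2.98 to 40.5 in UNx libraries, and the one 12203 bp downstream from 27.5 to 53.9 and from 25.3 to 38.4. In the downstream flank, the region 46914 bp from P1 ranked from 54.3 to 71.2 in Sham and from 66.4 to 70.9 in UNx libraries, and the one 28190 bp from P1 was at 20.6, 32.7 and 10.3 in Sham and at 0, 0 and 51.6 in UNx libraries. A region in an exon of Ttpal was at 28.0, 0 and 38.6 in Sham and at 0, 9.75 and 0 in UNx libraries. The regions 39370, 48847 and 50671 bp downstream did not exceed 30.8 in any library. The 3 Hnf4a regions found in 1 list each, and 1 Hnf4g region found in 2 lists, were not tested.

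The standing of the strong Hnf4a regions in the gene body differed with which of the authors' values ranked them. By −log10 q the P1 region had a mean percentile of 87.2, and by fold enrichment 43.8. The internal start went from 72.1 to 22.2, the region 11944 bp upstream from 85.4 to 46.9, and the region 13327 bp downstream from 81.7 to 34.6. The intergenic region 65415 bp upstream had 81.0 by −log10 q and 74.6 by fold enrichment. The Hnf4g promoter stood at 90.8 and 91.1 by the 2 measures, and its intronic region 73850 bp downstream at 49.5 and 62.4. The intronic Hnf4g regions 105800 and 107582 bp downstream went from 74.5 to 61.2 and from 23.1 to 8.55. At P1 the authors' fold enrichment was 6.02 to 6.61 over the 6 lists, and at the Hnf4g promoter 13.6 to 16.0.

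The same was seen for single peaks within 1 list. In UNx 2 the intronic Hnf4a peak 8431 bp downstream of P1 and the intergenic peak 52268 bp downstream had similar −log10 q values, 24.9 and 25.5. Their fold enrichments were 2.90 and 4.68. By fold enrichment the regions 8431 bp downstream and 9554 bp upstream of P1 were among the ranked peaks of 1 list each, Sham 2 in both cases, and were not tested. The region 66788 bp upstream kept its separation by fold enrichment, with 29.6, 37.8 and 35.5 in Sham and 5.15, 3.80 and 5.24 in UNx libraries. The region 11944 bp upstream did not, with 39.6, 54.9 and 37.2 in Sham and 58.3, 42.7 and 48.7 in UNx libraries.

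**Figure D4:**
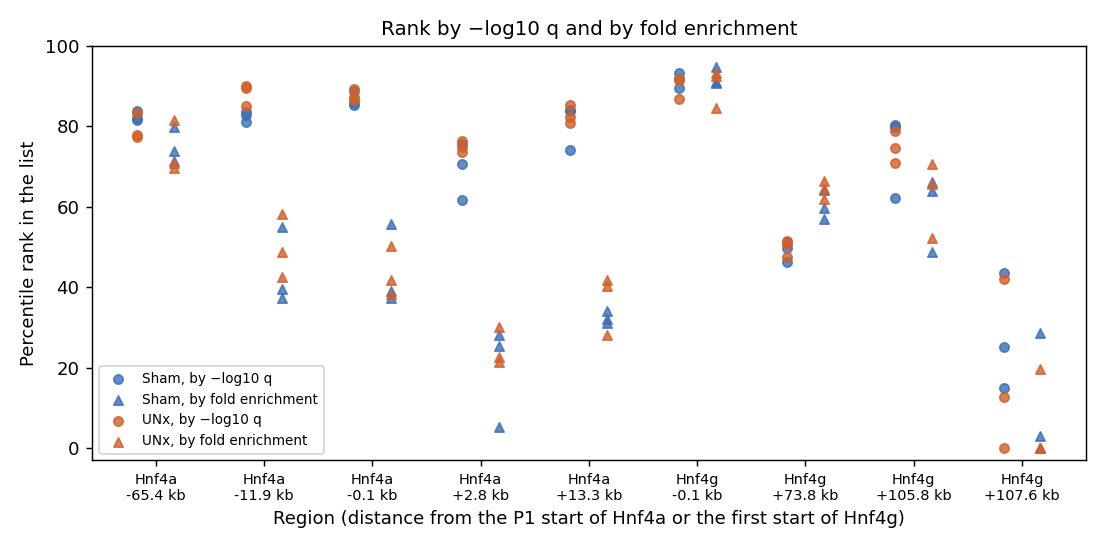
Percentile rank in each library (vertical axis) of the 9 HNF4 regions that are own promoters or strongest distal regions, ranked by −log10 q (circles) and by fold enrichment (triangles), with Sham in blue and UNx in orange. The 4 Hnf4a regions in the gene body drop by fold enrichment, P1 from a mean of 87.2 to 43.8, while the Hnf4g promoter stands at 90.8 and 91.1.

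Consensus strings were counted on both strands within 100 bp of the strongest summit. The HNF4 string CAAAG followed directly by TCCA was in 0 of the 30 tested HNF4 regions and in 2.42% of the 74781 tested regions. A stricter string, the HNF4 direct repeat of 2 AGGTCA half-sites with 1 A between them, was found in 0 of 30 and in 0.0214%, and the HNF1 palindrome, GTTAAT and ATTAAC with 1 base between them, in 0 of 30 and in 0.0361%. The CTCF string (CCAC, 1 base, AG, 2 bases, GGC) was in 0 of 30 and in 4.61%. The AP-1 string TGANTCA was in 2 of 30, both in the Hnf4g intron 73850 and 74992 bp downstream of the start, and in 7.24% of all tested regions.

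The looser HNF1 string shown in capitals, GTTAAT and TTAA with 2 bases between them, was added after the P1 sequence had been seen and contains every match to the palindrome. It was in 1 of 30 HNF4 regions, P1, in 0.859% of all tested regions and in 0.140% of 32851 RefSeq promoters, whose windows are longer. None of the strings was in the P2 sequence. A match describes letters and is not evidence of binding.

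The promoters most like P1 over the 6 libraries were those of G0s2, Dhx33 and Zfp688, with a mean absolute difference of 0.579, 0.582 and 0.809 percentile points. For the Hnf4g promoter they were those of BC052040, Abca14 and Efnb1, with 0.895, 1.08 and 1.11. These are the 3 smallest differences over 6 libraries among 13795 genes.

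Genes that work with HNF4 or are known as its targets were examined at their promoters. Of 10 coregulators and competing nuclear receptors, 9 had a tested promoter region, and 0 rose and 0 fell at an adjusted p under 0.05, where 0.423% of 12065 tested promoter regions were called (1 of the 9 had an unadjusted p under 0.05, against 13.5% of tested promoter regions). The median difference was 1.89, against −0.18 over all tested promoter regions. Ppargc1a, which encodes the coactivator PGC-1α, was at 65.3 ± 5.45 in Sham and 78.2 ± 4.06 in UNx libraries (mean ± SD of 3; adjusted p = 0.188 by limma), and all 3 UNx values lay above the Sham values. Crebbp, which encodes a histone acetyltransferase, was at 87.9 ± 1.74 and 83.3 ± 5.39 (limma adjusted p = 0.432), with overlapping groups. Nr0b2, which encodes the corepressor SHP, had no promoter region.

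Of 22 target genes, 19 had a tested promoter region, and again 0 rose and 0 fell (3 of 19 had an unadjusted p under 0.05, against 13.5%). The median difference was 0.48. Cdh6, which encodes a cadherin of immature proximal tubule, was at 74.5 ± 4.34 in Sham and 87.9 ± 0.519 in UNx libraries, a difference of 13.4 (limma unadjusted p = 0.00135, adjusted p = 0.0727), and all 3 UNx values lay above. Cubn, which encodes the endocytic receptor cubilin, was at 90.8 ± 3.64 and 84.2 ± 4.46 (limma adjusted p = 0.214), and all 3 UNx values lay below. Slc22a8, an organic anion transporter gene, had no promoter region, and Apom and Ttr had one in 2 and 1 lists. In 2 of the 19 the UNx values lay wholly above, against 9.43% of tested promoter regions, and in 3 wholly below, against 10.7%. Each of the remaining tested target promoters had an adjusted p above that of Cubn.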

How the data were processed

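The authors deposited 1 narrowPeak list per library. Per the submitters' processing notes, the tools included cutadapt 3.4, Bowtie, SAMtools, Picard and MACS2 2.2.7.1, with build mm10 (GRCm38). Their settings and the filter on the lists are not given in the sources used here. For every summit the authors deposited a fold enrichment, which is a ratio to local background, a −log10 p, a −log10 q, and a score that follows from the −log10 q. These are the authors' values and were used to describe and rank peaks within a list.

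Summits that share an interval were counted as 1 peak at the strongest of them, and chromosomes other than the autosomes, X and Y were left out. Intervals of the 6 reduced lists that overlapped by 1 bp or more were joined. Regions in at least 3 lists were tested for the UNx minus Sham difference in R 4.3.3 with limma 3.58.1, using a robust variance trend and two-sided p-values adjusted by Benjamini-Hochberg over all 74781 regions (threshold 0.05). GENCODE M21 gave starts and gene bodies, and a gene's promoter region is the one within 1 kb of a start whose mean percentile is highest. Ranks were simulated over 74781 regions for this comparison, with normal noise and with spreads reassigned at random between regions. Shifts were added only to regions of low mean rank. Of 200 such regions, limma recovered 0% when shifted by 30 points and 55% when shifted by 60. There were 0 calls when nothing was shifted. The recovery therefore does not describe regions of high rank, such as the open promoters. The regions named were all promoters of both genes and, for each gene, the 3 distal regions of highest mean rank and the 3 of largest difference; the other regions were named after their values were seen. In each list of other genes the 2 of smallest p were named, and genes named for lacking a region were chosen after the values were seen. Members, lists, strings and tests were chosen with earlier results of these data known.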

Additional observations from a re-analysis of the deposited data

How the results depend on the processing

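No region of Hnf4a or Hnf4g and no promoter of the 2 gene lists was called by limma under any of the alternatives run. In simulated data, 30-point shifts in percentile rank at regions of low mean rank were not recovered. Shifts at promoters of high rank were not simulated. Over all tested regions 589 were called. This became 1583 with normal scores, 143 with an overlap of at least 50%, 22 when every deposited peak was used, 3 when fold enrichment set the rank, 2 with the 20000 strongest peaks, 2 without a filter on the number of lists, 2 with GC-corrected ranks, and from 31 (without UNx 1) to 382 (without UNx 2) with 1 library left out. The HNF4 regions wholly above Sham numbered 5, 2 with the 20000 strongest peaks, 0 with ranking by fold enrichment and 5 to 7 with 1 library left out. Those wholly below numbered 3, 1 with all deposited peaks, 0 with the 20000 strongest peaks, 0 in the gene bodies alone and 3 to 6 with 1 library left out (6 without Sham 2, 5 without UNx 2 and 5 without UNx 3). The cause of these changes was not tested. The share over all tested regions is not given for these alternatives, so these counts have no background beside them. Separating 3 libraries from 2 is also an easier condition than separating 3 from 3.

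No pairing of the libraries by replicate number was seen, though so few libraries cannot exclude one. Deviations of same-numbered libraries correlated at 0.00819, −0.100 and −0.0496, and 1 of 6 libraries correlated best with its own number. A replicate block on the number gave 56 calls in all, and the block joined to GC-corrected ranks gave 0 (12390 at an unadjusted p under 0.05), in each case 0 at the HNF4 genes.

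The difference in regions per list at Hnf4a was 2.67 with all deposited peaks, 1 with the 20000 strongest peaks, 1 in the gene body alone, −2.67 by fold enrichment (exact permutation p = 0.2) and −1.50 to 0 with 1 library left out. Some differences changed sign. P1 was at −0.59 by fold enrichment and −0.12 with GC-corrected ranks, with or without the block. With 1 library left out, the Hnf4g promoter ran from −2.42 to 0.20 (without UNx 3) and the Hnf4a region 13327 bp downstream from −1.03 (without Sham 2) to 3.81. The Hnf4g region 105800 bp downstream ran from −4.44 (without Sham 2) to 3.80, with −1.36 without UNx 2, and was at −8.79 with the 20000 strongest peaks. The one 73850 bp downstream ran from −0.63 (without Sham 3) to 2.05, with −0.027 without UNx 3. The one 74992 bp downstream ran from −12.5 to 1.41 (without UNx 1) and was at 0.042 with normal scores. The differences 8431 bp downstream and 66788, 11944 and 9554 bp upstream of P1 kept their direction wherever they could be fitted, with limma adjusted p from 0.0583 to 0.818. By fold enrichment the regions 8431 bp downstream and 9554 bp upstream could not be fitted. Each was ranked there only in Sham 2, so neither was higher in UNx. With the 20000 strongest peaks, these regions and the one 66788 bp upstream were not fitted either.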
